A study of Mus musculus with 10 samples.

Results

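The genes of DNA replication and nucleotide supply comprised 44 members, of 21853 protein-coding genes with an annotated start. They were taken by name from the machinery that copies DNA and makes its building blocks, with earlier results of these data known. In neural stem cell cultures of the adult mouse brain, 43 of the 44 had a promoter peak in all 10 ATAC-seq libraries, before and after mitogen withdrawal, with and without p27. The promoter of 1 member (2.27%), Prim1, fell in rank at the onset of differentiation when both genotypes were averaged, where 3.07% of all promoters did. On the score defined below, every differentiating library was below every proliferating one at Prim1 and at 2.46% of all promoters. The start of Tk1 had a weak peak in every proliferating library and in no differentiating one, a pattern found at 0.543% of all promoters. Its direction was fixed by the filter described below. By contrast, 8 members (18.2%) rose in rank in the same comparison, where 7.90% of all promoters did, among them Gins2, Rpa2 and Rrm1. Most of these calls depended on how peaks were ranked, and the median change of the members, 0.18 on the score defined below, was close to the 0.14 of all promoters.

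These genes act in sequence. Origins are licensed in G1 by the origin recognition complex (Orc1 to Orc6), Cdc6 and Cdt1, which load the Mcm2 to Mcm7 helicase. Cdc45, the GINS complex and Mcm10 then turn the helicase on, and DNA polymerases, the Pcna clamp with its Rfc loader, single-strand binding protein, the flap nuclease Fen1 and the ligase Lig1 copy and join the strands. Rrm1, Rrm2, Tyms and Tk1 supply deoxynucleotides. Transcription of many of these genes rises towards S phase under E2F factors, which p27 restrains indirectly by inhibiting cyclin-dependent kinases.

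ATAC-seq, in which a transposase inserts adapters into open DNA, was carried out on cultures from the subependymal zone (SEZ) of mice aged 10 weeks, with 50000 cells per library. Wild-type (WT) cultures and cultures from Cdkn1b mutant mice (p27KO), a line kept on a C57BL/6J background, were each sampled in 2 conditions. Proliferating cells (PRO) were neurospheres in medium that held EGF at 20 ng/ml together with FGF at 10 ng/ml, after 3 days in vitro per the labels. At the onset of differentiation (DIFF), the cells had spent 2 days on Matrigel with FGF and then 24 h without mitogens in medium with 2% FBS. WT gave 3 libraries in each condition and p27KO gave 2 in each. Nothing in the labels states that libraries of a group came from separate mice, so the p-values measure the spread between these libraries. PRO and DIFF also differed in substrate and serum, so DIFF minus PRO covers the whole change of culture.

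Each library had its own list of 57534 to 91801 peaks, and the number of reads behind a list is unknown. The WT DIFF lists varied most, with 1 long list of 88738 peaks beside 61783 and 57534. The region at the Cdkn1b start had a peak in 3 of 3 WT PRO, 3 of 3 WT DIFF and 0 of 4 p27KO libraries, while another region within 3 kb of it had a peak in 2 of 2 p27KO PRO libraries. Peaks at the Y-linked promoters Ddx3y, Eif2s3y, Uty and Kdm5d were present in all 6 WT and 0 of 4 p27KO libraries, so genotype and donor sex cannot be told apart. Promoters of 6 of 6 neural progenitor markers had a peak in all 10 libraries. None of the 3 markers of mature oligodendrocytes had one, and 2 of 4 microglial and 3 of 4 endothelial markers had none. Of 3 markers of mature neurons, 2 had a peak in all 10.

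A promoter was the region whose summit lay nearest to a start and within 3 kb. The fold enrichment of the deposited lists is the height of a peak over its local background. Its percentile within a list is the share of that library's peaks that were lower. For tests, each of 70509 regions found in at least 5 libraries was ranked by fold enrichment within each library, and the rank was turned into a normal score, on which 0 is the middle region. Regions without a peak fill the bottom of the ranking, so at a like percentile the score can be higher in a shorter list. At Mcm2, a percentile of 61.7 in WT PRO 1 (80179 peaks) gave a score of 0.17. A percentile of 60.5 in WT DIFF 1 (61783 peaks) gave 0.40. How much of the change at each gene this carries was not tested. All changes below are differences of this score, not log2 folds. They were fitted with limma over all 14731 protein-coding promoters, all 44 members included, and adjusted by Benjamini-Hochberg. A lower summit in all cells and a closed site in some of the cells cannot be told apart.

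Sequence features were read from a window of 300 bases around each RefSeq start, mostly before it (GRCm38.p6). The table held 37 of the 44 members, not Mcm4, Gins1, Gins2, Gins4, Rfc2, Prim2 and Pole. The letters of the E2F motif (TTTCCCGC, TTTCGCGC, TTTGCCGC or TTTGGCGC, either strand) occurred in 13 of 37 members, 35.1%, and in 3.89% of 11410 other tested promoters. CCAAT occurred in 56.8% of members and 38.2% of the others, and the ETS letters CCGGAAGT in 24.3% and 7.69%. The CHR letters TTTGAA, in 10.8% and 11.2%, and the GC box GGGCGG, in 73% and 64.3%, were closer to the other promoters. A match of letters is a description and not evidence of binding. Median GC content was 61.3% in both sets, and the ratio of observed to expected CpG had a median of 0.845 in members and 0.753 in the others.

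The sequences of 3 members with E2F letters are shown, for a helicase subunit, an origin subunit and a loader, each limited to bases before the RefSeq start that lie in no annotated exon. Capitals mark the E2F letters on either strand. In Mcm5, a match on each strand overlaps the other, beginning at positions -153 and -149 from the RefSeq start. The match lies at -27 in Orc1 and at -138 in Cdc6, whose GENCODE start at 98907801 is upstream of the stretch shown.
Mcm5 (chr8:75109309-75109508, plus strand): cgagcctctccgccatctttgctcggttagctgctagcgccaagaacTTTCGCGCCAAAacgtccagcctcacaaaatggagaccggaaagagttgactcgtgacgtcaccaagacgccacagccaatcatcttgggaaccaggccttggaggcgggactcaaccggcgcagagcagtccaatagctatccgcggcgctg
Orc1 (chr4:108579337-108579453, plus strand): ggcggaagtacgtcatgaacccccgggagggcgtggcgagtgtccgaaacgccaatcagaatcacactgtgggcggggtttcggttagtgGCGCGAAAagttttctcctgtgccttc
Cdc6 (chr11:98907982-98908150, plus strand): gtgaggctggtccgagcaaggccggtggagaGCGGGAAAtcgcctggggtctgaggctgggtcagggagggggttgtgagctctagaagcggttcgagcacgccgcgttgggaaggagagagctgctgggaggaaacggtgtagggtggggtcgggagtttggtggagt
The promoters of Prim1 and Tk1, chosen after their values were seen because they carry the falls described below, held none of the E2F letters in the RefSeq window. They are shown by the same rule, in lower case throughout.
Prim1 (chr10:128014968-128015167, plus strand): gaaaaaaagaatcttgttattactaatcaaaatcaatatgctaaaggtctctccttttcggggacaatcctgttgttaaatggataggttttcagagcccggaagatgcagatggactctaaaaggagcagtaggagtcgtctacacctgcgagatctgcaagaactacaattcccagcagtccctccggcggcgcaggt
Tk1 (chr11:117826093-117826264, minus strand): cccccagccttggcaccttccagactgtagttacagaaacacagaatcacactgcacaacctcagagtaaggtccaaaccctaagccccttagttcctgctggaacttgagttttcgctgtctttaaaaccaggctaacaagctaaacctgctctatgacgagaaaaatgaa
Of the 13 members with E2F letters, 2 passed the test as higher at DIFF (Mcm5 and Lig1), and the median percentile of their peaks was 95.5. Of the 24 without them, 3 were higher and 1 was lower, and the median percentile was 92.8. Over all promoters, 7.90% were higher and 3.07% lower, and no difference between these small sets was tested.

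The members' promoters were among the taller peaks of every library. Averaged over libraries, the median member stood at the 93.9th percentile of its list and the median of 14687 other tested promoters at 81.2. A mean percentile above 90 was found for 27 of 44 members, 61.4%, and for 28.3% of the others. The median percentile of the 44 in a library ranged from 91.2 to 92.5 in WT PRO, 94.1 to 96.9 in WT DIFF, 93.5 to 94.6 in p27KO PRO and 94.6 to 95.8 in p27KO DIFF. The other promoters stood between 80.5 and 85.7 over the same libraries, so the ranges of members and others did not meet in any group. Peaks in all 10 libraries were found for 97.7% of members and 88.7% of the other tested promoters. The share was 59.8% of all annotated protein-coding genes, a set that includes genes silent in these cells.

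**Figure D1:**
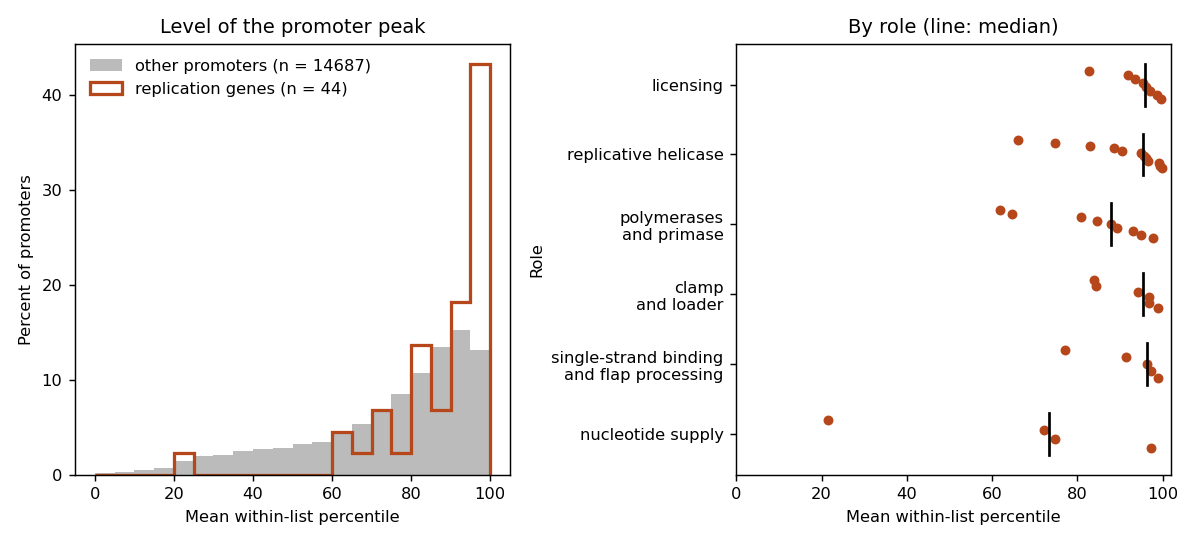
Left, mean within-list percentile of the promoter peak (x axis) as percent of promoters (y axis), for 44 replication genes (outline) and 14687 other tested promoters (grey). Right, the same percentile for each member by role, with the median as a line; 4 of the 6 roles have medians above 95, while nucleotide supply has a median of 73.4 and includes Tk1 at 21.4.

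The level differed by role. Licensing genes had a median of 95.8, from Cdt1 at 82.7 to Orc2 at 99.6. The helicase and its activators had a median of 95.3, from 66.1 at Mcm2 to 99.8 at Mcm3, which encode subunits of the same ring. Polymerases and primase stood lower, with a median of 88.0, from Pola2 at 61.8 to Pole3 at 97.7. The clamp and its loader had a median of 95.5, and single-strand binding and flap processing 96.4. In nucleotide supply, Rrm1 stood at 97.3, Tyms at 74.8, Rrm2 at 72.1 and Tk1 at 21.4.

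The 3 highest peaks belonged to Mcm3, Orc2, an origin subunit, and Gins4, a GINS subunit. At Mcm3 the fold enrichment was 19.2, 19.5 and 20.0 in WT PRO, 18.9, 19.1 and 20.6 in WT DIFF, 21.0 and 20.6 in p27KO PRO and 21.8 and 22.7 in p27KO DIFF. These values lay at percentiles of 99.6 to 99.9, near the top of the scale, where ranks have little room to rise. The 3 lowest were Tk1, Pola2 and Prim1. Pola2, the accessory subunit of the polymerase that starts each strand, had a fold enrichment of 9.11, 7.98 and 7.64 in WT PRO, 5.30, 4.40 and 6.67 in WT DIFF, 8.13 and 7.35 in p27KO PRO and 6.62 and 7.10 in p27KO DIFF. Both DIFF groups lay below their own PRO group on this scale. On the normal score the changes were -0.35 in WT (95% interval -0.64 to -0.06, adjusted p = 0.152) and 0.02 in p27KO (95% interval -0.34 to 0.38), and an average of -0.17.

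**Figure D2:**
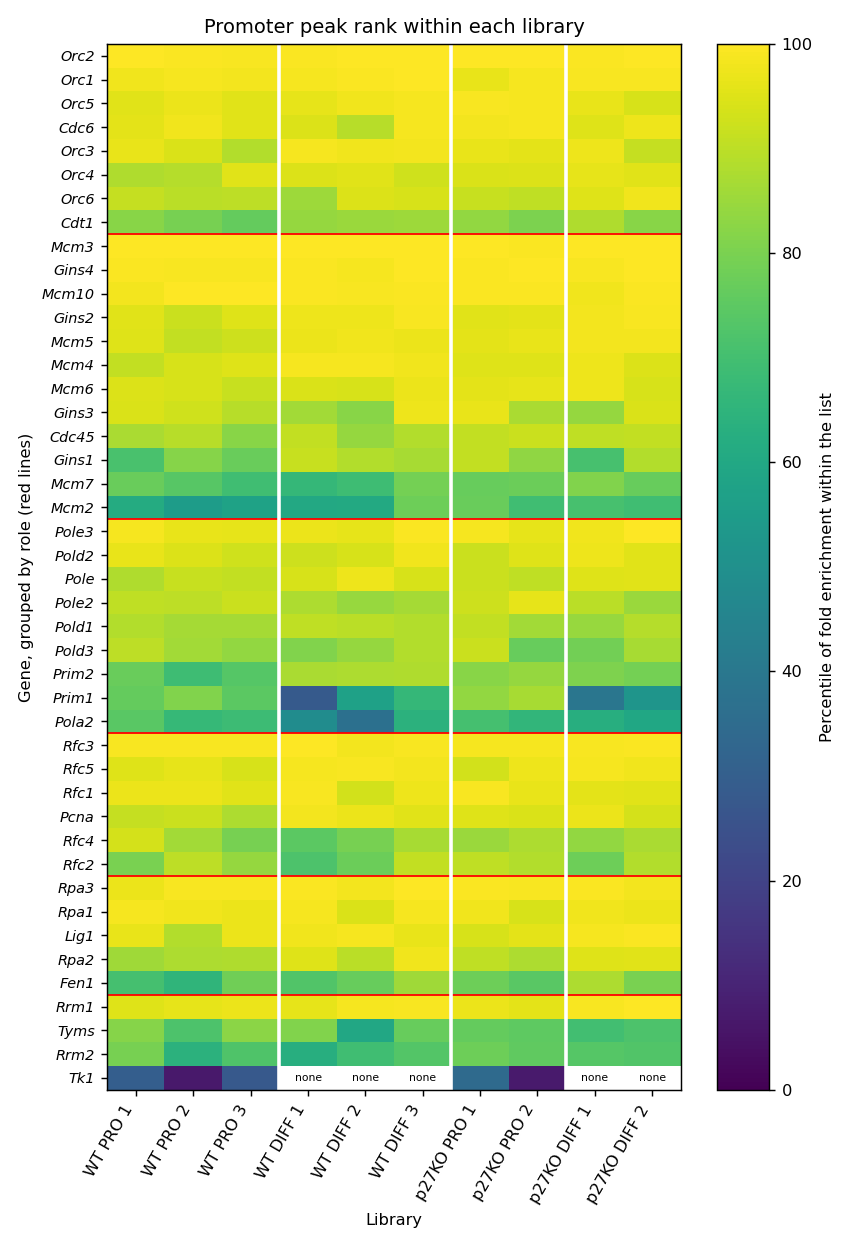
Percentile of the promoter peak's fold enrichment within its own list (colour, 0 to 100) for 44 genes (rows, ordered by level within each role) in 10 libraries (columns, groups separated by white lines). The word none marks a library without a peak, which occurs at Tk1 in the 5 DIFF libraries and nowhere else; Prim1 is darker in the 5 DIFF libraries than in the 5 PRO libraries.

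In width the regions were like those of other promoters, but more of them were centred on a start and shared with a second gene. Their median width was 1109.5 bp, from 514 bp at Mcm2 to 2037 bp at Fen1, and 1103.0 bp in the others. The summit lay within 100 bp of a start in 42 of 44, 95.5%, against 78.9%. A second gene shared the region in 14 of 44, 31.8%, against 16.9% of other promoters. Among these, Mcm4 shared with Prkdc, Pole with Pxmp2, Lig1 with Zswim9, Fen1 with Tmem258 and Tk1 with Afmid, so a peak there cannot be assigned to 1 gene of the pair.

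Whether promoters changed at the onset of differentiation was asked first with both genotypes averaged. Of 44 members, 8 were higher at DIFF, 18.2%, where 7.90% of all promoters were. Lower at DIFF was 1 member, 2.27%, where 3.07% of all promoters were. The median change of the members was 0.18 and that of all promoters 0.14, with 32 of 44 members (72.7%) and 70.3% of all promoters above 0, so the members as a list moved about as promoters did in general. Ranked by the −log10 p-value of each peak, 2 members were higher (6.34% of all promoters) and 2 lower (3.99%), and the medians were 0.05 and 0.07. Ranked among promoter regions alone, 3 were higher (2.65%) and 1 lower (3.45%), and the median of all promoters was 0.04. With only the top 57000 peaks of each list kept, 9 of 43 members tested were higher and 1 lower, where 11.9% of all promoters were called. The medians were then 0.20 in members and 0.15 in all promoters. Ranked by p-value, Mcm4 and Rpa2 were the members called higher and Prim1 and Tk1 those called lower, the latter a region that could only fall, as described below, while ranked among promoters Gins2, Rpa2 and Rrm1 were. The share of members called higher was thus above that of all promoters by fold enrichment and not by p-value.

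**Figure D3:**
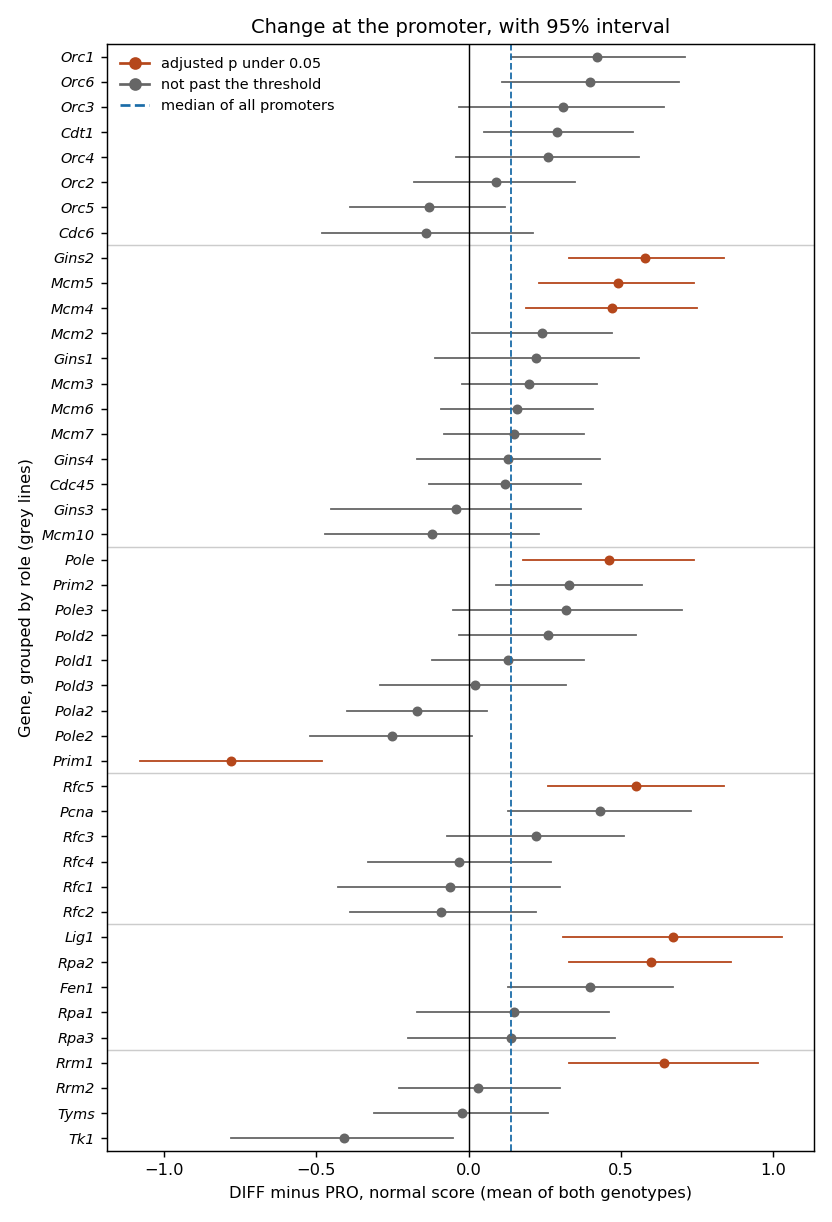
Change of the promoter's normal score, DIFF minus PRO averaged over genotypes (x axis), for 44 genes grouped by role (y axis), with 95% intervals from limma. The 9 genes past an adjusted p of 0.05 are in red; Prim1 at -0.78 is alone on the lower side, and the dashed line is the median of all promoters, 0.14.

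Prim1 (ENSMUSG00000025395, chromosome 10, region 128014933 to 128015798, GRCm38) encodes the catalytic subunit of primase, which makes the RNA primers of each new strand. Its region covered the start and part of an exon, and the summit lay 1 bp from the start. The fold enrichment was 9.42, 10.7 and 8.69 in WT PRO and 4.05, 5.78 and 6.98 in WT DIFF. It was 11.3 and 12 in p27KO PRO and 4.59 and 6.25 in p27KO DIFF. Every DIFF library was below every PRO library, here and on the normal score. On the normal score the pattern was found in 1 of 44 members and in 2.46% of all promoters.

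In percentiles, Prim1 moved from 76.3, 81.2 and 74.9 in WT PRO to 28.2, 57.4 and 66.5 in WT DIFF, and from 83.9 and 87.0 in p27KO PRO to 39.4 and 52.2 in p27KO DIFF. The score fell by 0.78 (SE 0.14, 95% interval -1.08 to -0.48, limma adjusted p = 0.00533). It was past the threshold under all 9 alternatives and all 10 fits without 1 library, with adjusted p between 0.00147 and 0.0313. Within WT the change was -0.57 (95% interval -0.95 to -0.19, adjusted p = 0.0914) and within p27KO it was -0.99 (95% interval -1.45 to -0.52, adjusted p = 0.0438). The p27KO call was held in 2 of the 10 fits without 1 library and in 6 of 10 alternatives. The difference between genotypes, -0.42, had a 95% interval of -1.02 to 0.18.

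Tk1 (ENSMUSG00000025574, chromosome 11) encodes thymidine kinase, the salvage enzyme that phosphorylates thymidine. The region at its start, 117825255 to 117826408, had a fold enrichment of 4.21, 3.13 and 3.97 in WT PRO and 4.13 and 2.96 in p27KO PRO, and no peak in the 5 DIFF libraries. This presence in all 5 PRO and 0 DIFF libraries was found in 1 of 44 members and in 0.543% of all promoters, and the opposite in 0 members and 0.143%. All 5 peaks were weak, at percentiles from 6.99 to 34.7. The region entered the set of regions found in at least 5 libraries only through the PRO group, so its direction was fixed by that filter, and its change in score of -0.41 is a description without a test, as are its calls under other rankings. A missing peak is placed at the bottom of a library's ranking, at a score that depends on list length. Except for WT DIFF 3, with 88738 peaks, the DIFF lists (57534 to 73220 peaks) were shorter than every PRO list (76372 to 91801). With only the top 57000 peaks of each list kept, 43 of the 44 member promoters were still found in at least 5 libraries. Tk1, at 5 in the full lists, was the member nearest that limit, so its pattern may not hold in lists of equal length. Whether list length bears on the missing Tk1 peaks was not tested.

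A stronger region, 117823929 to 117825051, lay inside Tk1 with its summit about 1326 bp downstream of the start. It had a peak in all 10 libraries, with a fold enrichment of 7.53, 9.36 and 8.53 in WT PRO, 7.25, 5.51 and 7.20 in WT DIFF, 7.80 and 9.37 in p27KO PRO and 7.78 and 7.86 in p27KO DIFF. The WT DIFF values lay below the WT PRO values, while 1 p27KO DIFF value lay between the p27KO PRO values. Its change in score was -0.02 (adjusted p = 0.927 over all regions). Rrm2, the regulated small subunit of ribonucleotide reductase, also had a second region, 24710213 to 24710881 on chromosome 12, about 2045 bp downstream of its start. It had a peak in all 10 libraries and was higher at DIFF by 0.57 (adjusted p = 0.00928), as were 11.0% of all such regions. At the start of Rrm2 the change was 0.03 (95% interval -0.23 to 0.30). Other second regions, at Pola2 (0.43 and 0.31) and Prim2 (0.40), lacked a peak in some libraries and did not pass. The second region of Pole, found in 3 libraries, was not tested.

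**Figure D4:**
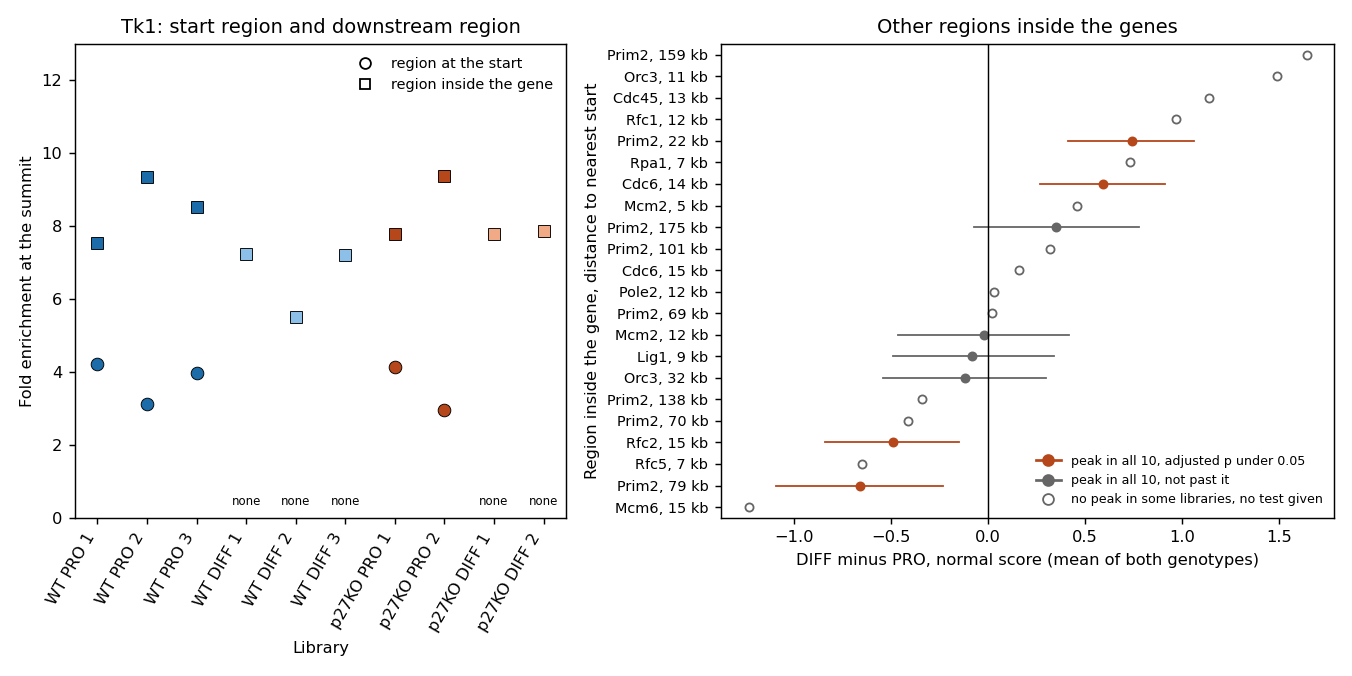
Left, fold enrichment (y axis) in each library (x axis) at the Tk1 start region (circles; none marks no peak) and the region inside the gene (squares), coloured by group. Right, change of the normal score (x axis) for 22 regions inside member genes (y axis, gene and distance to the nearest start). Filled points with 95% intervals are the 8 regions with a peak in all 10 libraries, of which 2 higher and 2 lower at DIFF are past an adjusted p of 0.05 (red); open points are regions that lacked a peak in some libraries.

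The roles are small, so their counts are read against the 7.90% of all promoters that were higher and the 3.07% that were lower. Among the helicase genes, 3 of 12 were higher at DIFF and none lower. Gins2, a GINS subunit, had normal scores of 1.62, 1.33 and 1.62 in WT PRO, 1.99, 2.04 and 2.32 in WT DIFF, 1.59 and 1.65 in p27KO PRO and 2.13 and 2.26 in p27KO DIFF. Every DIFF library was above every PRO library, and the change was 0.58 (SE 0.12, adjusted p = 0.0102). The call held in all 10 fits without 1 library and was lost when peaks were ranked by p-value (0.26, adjusted p = 0.126).

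Mcm5, a subunit of the helicase ring, scored 1.61, 1.28 and 1.40 in WT PRO, 1.96, 2.12 and 1.81 in WT DIFF, 1.60 and 1.74 in p27KO PRO and 2.10 and 2.11 in p27KO DIFF. Its groups did not overlap either, with a change of 0.49 (SE 0.12, adjusted p = 0.0223). The call held in 6 of 10 fits without 1 library and under neither other ranking. Mcm4, in the same ring, scored 1.26, 1.48 and 1.62 in WT PRO, 2.26, 2.30 and 1.93 in WT DIFF, 1.55 and 1.56 in p27KO PRO and 2.00 and 1.59 in p27KO DIFF. Its change was 0.47 (SE 0.13, adjusted p = 0.0381), and 1 p27KO DIFF library lay among the PRO values. The call held in 3 of 10 fits without 1 library and was lost when peaks were ranked among promoters. At Mcm2, Mcm3, Mcm6 and Mcm7 the changes ran from 0.15 to 0.24 and did not pass the test, and at Cdc45 the change was 0.12 (95% interval -0.13 to 0.37).

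In the group of polymerases and primase, Pole was higher and Prim1 lower at DIFF. Pole, the catalytic subunit of the leading-strand polymerase, scored 1.10, 1.32 and 1.30 in WT PRO, 1.63, 2.05 and 1.45 in WT DIFF, 1.27 and 1.20 in p27KO PRO and 1.70 and 1.67 in p27KO DIFF, with no overlap between conditions. The change was 0.46 (SE 0.13, adjusted p = 0.041) and the call held in 1 of 10 fits without 1 library and under neither other ranking. Pole2, its second subunit, had a change of -0.25 (95% interval -0.52 to 0.01). Prim2, the other primase subunit, scored 0.64, 0.40 and 0.57 in WT PRO and 1.22, 1.29 and 1.04 in WT DIFF, which did not overlap, and 0.74 and 0.88 in p27KO PRO and 0.89 and 0.79 in p27KO DIFF, which did.

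Of the clamp and its loader, 1 of 6 passed. Rfc5, a loader subunit, scored 1.62, 1.75 and 1.51 in WT PRO, 2.25, 2.37 and 2.06 in WT DIFF, 1.34 and 1.87 in p27KO PRO and 2.22 and 1.98 in p27KO DIFF, without overlap between conditions. The change was 0.55 (SE 0.13, adjusted p = 0.0233), held in 8 of 10 fits without 1 library and under neither other ranking. Pcna, the sliding clamp and a common marker of cycling cells, had a change of 0.43 (95% interval 0.13 to 0.73, adjusted p = 0.0624). At Rfc3 the change was 0.22 (95% interval -0.07 to 0.51).

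Of the single-strand binding and flap processing genes, 2 of 5 passed, both higher. Rpa2, a subunit of the single-strand binding complex, scored 0.99, 1.09 and 1.14 in WT PRO, 1.74, 1.39 and 1.93 in WT DIFF, 1.17 and 1.05 in p27KO PRO and 1.69 and 1.68 in p27KO DIFF. All DIFF libraries were above all PRO libraries on this score. In percentile, WT DIFF 2 (89.8) lay below p27KO PRO 1 (90.6), and in fold enrichment they stood at 11.1 and 13.5. The change in score was 0.60 (SE 0.12, adjusted p = 0.0116). The call held under all 9 alternatives, including both other rankings, and in 9 of 10 fits without 1 library. Lig1, which joins the fragments of the lagging strand, scored 1.76, 1.14 and 1.86 in WT PRO, 2.08, 2.26 and 1.74 in WT DIFF, 1.43 and 1.68 in p27KO PRO and 2.27 and 2.64 in p27KO DIFF. The WT groups overlapped, and the change was 0.67 (SE 0.17, adjusted p = 0.0252), held in 6 of 10 fits without 1 library and under neither other ranking. Fen1 had a change of 0.40 (95% interval 0.13 to 0.67, adjusted p = 0.055).

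Among nucleotide supply genes, Rrm1 alone passed. Rrm1, the large subunit of ribonucleotide reductase, scored 1.59, 1.72 and 1.83 in WT PRO, 1.83, 2.26 and 2.23 in WT DIFF, 1.78 and 1.65 in p27KO PRO and 2.32 and 2.90 in p27KO DIFF. The lowest DIFF value met the highest PRO value, both in WT. The change was 0.64 (SE 0.14, adjusted p = 0.0161), held in 8 of 10 fits without 1 library and lost when ranked by p-value (0.25, adjusted p = 0.154). Tyms, which makes thymidylate, had a change of -0.02 (95% interval -0.31 to 0.26).

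**Figure D5:**
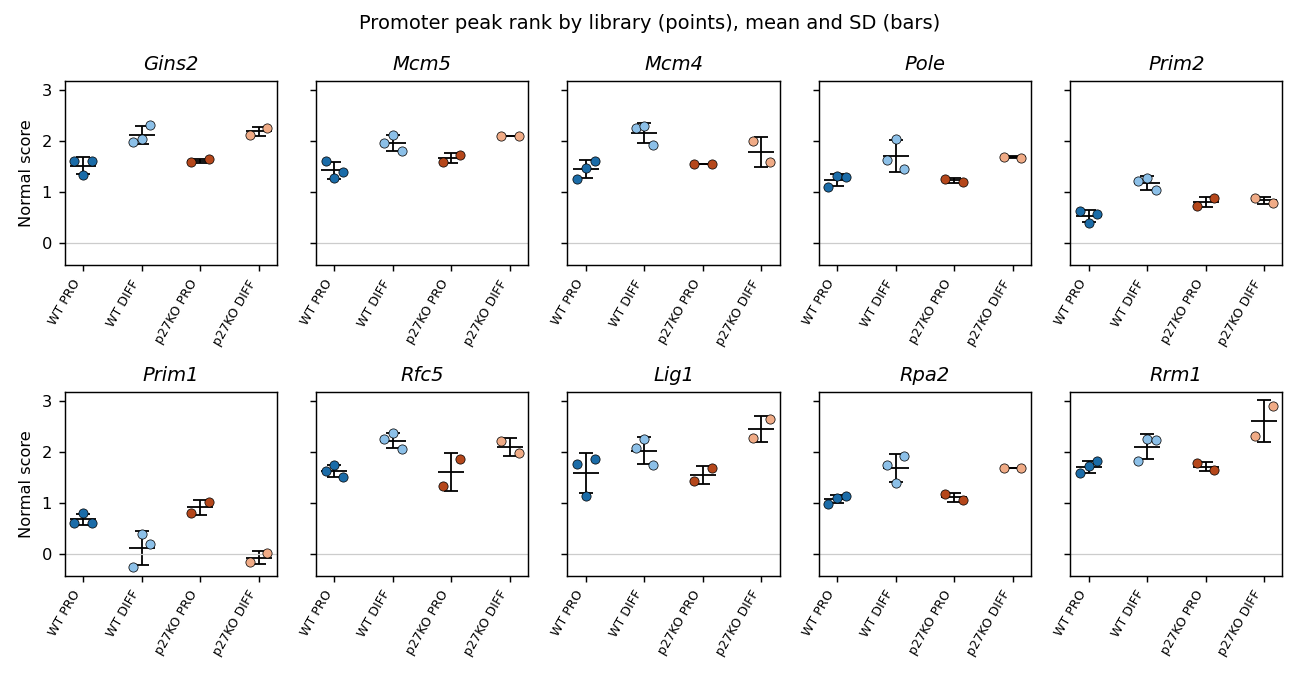
Normal score (y axis) of the promoter peak in each library (points) by group (x axis), with mean and SD as bars, for the 10 genes past the threshold in any contrast. Prim1 is lower in every DIFF library; Gins2, Mcm5, Pole, Rfc5 and Rpa2 are higher in every DIFF library than in every PRO library.

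None of the 8 licensing genes passed the test. Orc1 (0.42, 95% interval 0.14 to 0.71, adjusted p = 0.0543) and Orc6 (0.40, 95% interval 0.11 to 0.69, adjusted p = 0.0695) came closest. Cdt1 had a change of 0.29 (95% interval 0.05 to 0.54), and Cdc6 of -0.14 (95% interval -0.48 to 0.21). On the normal score, all DIFF libraries lay above all PRO libraries at 8 members, 18.2%, and at 10.3% of all promoters. These members were Mcm3, Mcm5, Orc1, Cdt1, Gins2, Rfc5, Pole and Rpa2. In percentile the conditions overlapped at Rpa2, as given above, and at Orc1 (98.6 in WT DIFF 1, 98.8 in WT PRO 2). They also overlapped at Cdt1 (82.1 in p27KO DIFF 2, 83.7 in p27KO PRO 1) and met at Mcm3. Leaving out any 1 library kept the median change of the members between 0.17 and 0.21. With 1 library left in a p27KO group, the mean of that group is less certain. The number of calls was lower in each such fit, among members and among promoters in general. From 9 members in all, with 11% of all promoters, it went to 3 (3.87%) without p27KO PRO 2, to 4 (4.84%) without p27KO PRO 1, and to 5 without p27KO DIFF 1 (5.78%) or p27KO DIFF 2 (5.52%). Without WT DIFF 2 it was 6 (7.59%), and without WT DIFF 3 it was 10 (12.3%).

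Within WT, 2 members were higher at DIFF, where 2.06% of all promoters were. These were Mcm4 (0.70, 95% interval 0.35 to 1.06, adjusted p = 0.0391) and Prim2 (0.64, 95% interval 0.34 to 0.95, adjusted p = 0.0286). None was lower in the limma test, where 1.26% of all promoters were, and 16 members (36.4%) had an unadjusted p under 0.05 in either direction, against 22.7% of all promoters. The call of Mcm4 held in 3 and that of Prim2 in 5 of 10 fits without 1 library. No member was called in WT when only the WT libraries were fitted. Within p27KO, none was higher (0.774% of all promoters) and Prim1 was lower (0.543%), with 11 members (25%) and 16.3% of all promoters under an unadjusted p of 0.05. The medians of the members were 0.20 in WT and 0.09 in p27KO, and those of all promoters 0.12 and 0.14.

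Whether the change depended on p27 was asked with the interaction. It was called by limma at 0 of 44 members and at 0% of all promoters, with 3 members (6.82%) and 602 promoters (4.09%) under an unadjusted p of 0.05. The 3 members were Orc5 (-0.90, 95% interval -1.41 to -0.38), Gins1 (-0.72, 95% interval -1.39 to -0.06) and Prim2 (-0.62, 95% interval -1.10 to -0.14), each with an adjusted p of 0.999 and named after their values were seen. Mcm4, called within WT, had an interaction of -0.47 (95% interval -1.03 to 0.10). The intervals leave room for differences as large as most of the changes above.

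Comparing genotypes directly, p27KO minus WT passed at 0 members at DIFF, where 0.0339% of all promoters did, and at 0 members at PRO, where 0.0407% did. At an unadjusted p under 0.05 there were 3 members (6.82%) at DIFF, with 5% of all promoters, and 2 members (4.55%) at PRO, with 4.87% of all promoters, so the members were near the promoters in general. They were Rrm1 (0.51, 95% interval 0.07 to 0.94), Orc6 and Prim2 at DIFF, and Orc5 (0.55, 95% interval 0.19 to 0.92) and Mcm2 (0.34, 95% interval 0.02 to 0.67) at PRO. At Tk1 and Tyms the differences at DIFF were -0.03 and -0.11.

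Other regions inside the genes, over 3 kb from every start, numbered 45 in 17 members, with the median summit in an intron for 41 and in an exon for 4. Prim2, the longest of these genes, held 18. A peak in at least 5 libraries was present in 22, and a peak in all 10 libraries in 8. Of the 22, 6 were higher at DIFF (13.5% of all regions) and 4 lower (14.5%) averaged over genotypes, 6 higher (9.18%) and 1 lower (10.1%) within WT, and 3 higher (5.84%) and 0 lower (6.49%) within p27KO. A region that lacks peaks in 1 condition may have entered only through the other, which then fixes its direction, so nothing is read from these counts, and tests are given only for the 8. Of the 8, 2 were higher at DIFF (11.0% of all regions with a peak in all 10 libraries) and 2 lower (8.27%). Within WT 1 was higher (6.26%) and 0 lower (5.00%), and within p27KO 1 was higher (2.85%) and 0 lower (2.96%).

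In an intron of Prim2, at 33646978 to 33647684 on chromosome 1 and about 22447 bp from the start, percentiles were 70.4, 51.3 and 65.2 in WT PRO, 88.5, 87.0 and 89.2 in WT DIFF, 84.1 and 78.4 in p27KO PRO and 89.0 and 88.7 in p27KO DIFF. It rose by 0.74 (95% interval 0.41 to 1.06, adjusted p = 0.00324). Further into the same gene, at 33590692 to 33591680, percentiles were 87.5, 87.7 and 92.1 in WT PRO, 76.7, 32.2 and 80.8 in WT DIFF, 94.8 and 91.3 in p27KO PRO and 81.7 and 73.8 in p27KO DIFF. This region fell by 0.66 (adjusted p = 0.0278), so regions of 1 gene moved in opposite directions. The other called regions were at an exon of Cdc6, which rose by 0.59 (adjusted p = 0.0105), and at an exon of Rfc2, which fell by 0.49 (adjusted p = 0.0371). At the Cdc6 region the change was 0.30 in WT (95% interval -0.10 to 0.71) and 0.88 in p27KO (95% interval 0.39 to 1.38). At the Rfc2 region it was -0.61 in WT and -0.38 in p27KO.

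Among regions that lacked a peak in some libraries, an intron of Prim2 at 33510776 to 33511201 had no peak in the 5 PRO libraries and percentiles of 54.2, 30.2 and 55.7 in WT DIFF and 48.5 and 35.5 in p27KO DIFF. An intron of Orc3, at 34603097 to 34603811 on chromosome 4, had a peak in 3 of 5 PRO and 5 of 5 DIFF libraries, at percentiles up to 21.9 in PRO and from 30.0 to 74.9 in DIFF. In an intron of Mcm6, at 128344142 to 128344814 on chromosome 1, percentiles were 89.4, 77.6 and 88.2 in WT PRO, 63.7, no peak and 58.4 in WT DIFF, 98.0 and 93.3 in p27KO PRO and 64.6 and 68.9 in p27KO DIFF. No DIFF library reached the PRO range there. An intron of Rfc5 had a peak in 5 of 5 PRO and 0 of 5 DIFF libraries. In an intron of Cdc45, percentiles were up to 49.6 in PRO and from 53.2 to 71.6 in DIFF. WT PRO 1 and WT PRO 3 lacked a peak there. In an intron of Rfc1, they were up to 17.4 in PRO and from 28.2 to 56.5 in DIFF. WT DIFF 2 and all of WT PRO lacked one. The Prim2 and Rfc5 regions entered through 1 condition only, which fixed their direction. How many of all regions separate like this was not counted, so these patterns are descriptions.

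Of 47 further genes of replication, chromatin assembly and nucleotide metabolism, all were tested, 5 (10.6%) were higher at DIFF averaged over genotypes, where 7.90% of all promoters were, and 0 lower, where 3.07% were, with a median change of 0.21 beside 0.14 over all promoters. Among the 5 were Uhrf1 (0.82, SE 0.11, adjusted p = 0.000666), which recruits the maintenance methyltransferase to new DNA, that enzyme itself, Dnmt1 (0.52), the chromatin assembly subunit Chaf1b (0.75), and Dck (0.54), a kinase of nucleotide salvage. Within WT, Uhrf1 and Chaf1b passed (4.26% of the list and 2.06% of all promoters higher), and within p27KO none of the 47 did (0.774% higher and 0.543% lower over all promoters).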

How the data were processed

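Peak lists of 10 ATAC-seq libraries, 1 list per library, were analysed. The authors clipped and trimmed reads with Cutadapt and Trimmomatic, mapped them to GRCm38 with Bowtie2, had Picard mark duplicates and used MACS2 for narrow peaks at a false discovery rate of 0.05, and tool versions and read shifts are not given in the sources used here. The deposited fold enrichment is a ratio, read pileup at a peak's summit over background nearby. The −log10 p-values and −log10 q-values were computed by the authors' peak caller for each peak, and the lists reached down to a −log10 q-value of 1.3. Reads per library are unknown, so no depth, counting interval or floor is given, and a missing peak shows only that none was called.

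Intervals overlapping by at least 1 bp were merged over the lists. At least 2 libraries had a peak in 98991 of these, and the 70509 found in 5 or more were ranked within each library by fold enrichment, with missing peaks tied at the bottom, and ranks were turned into normal scores. Promoters were assigned with protein-coding starts of GENCODE M21, and the authors used M18. Scores were fitted by group means in limma 3.58.1 (R 4.3.3) and adjusted by Benjamini-Hochberg at 0.05 over 14731 promoters, which lay in 13451 distinct regions, or over all regions. All p-values printed are from limma. The study's read-based test needs alignments, which were not used here. Members and gene lists were chosen with earlier results of these data known. Named were members called in any contrast, the 5 largest rises and falls, members fixed by role, the 3 highest and 3 lowest, members lacking a peak in some library, and called regions inside genes. Sample titles gave the groups. For p27KO, the description field speaks of WT, which their titles and genotypes contradict. The time in vitro of PRO cells differs between the labels and a passage of the study, so it is not settled. The values of 1 further gene are not reported here. The script was tested on simulated data. The ranking column, the set ranked, region filters, window, start sites, list length, groups fitted, a replicate block and single libraries left out were varied.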

Additional observations from a re-analysis of the deposited data

Results flagged for a closer look

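The promoter of Orc5, which encodes a subunit of the origin recognition complex, was marked because its libraries moved in opposite directions in the 2 genotypes. In WT the normal scores were 1.66, 1.85 and 1.65 in PRO and 1.86, 2.09 and 2.15 in DIFF, so every DIFF library was above every PRO library. In p27KO they were 2.35 and 2.19 in PRO and 1.85 and 1.52 in DIFF, so both DIFF libraries were below both PRO libraries. The difference of the changes, p27KO minus WT, was -0.90 (limma, 95% interval -1.41 to -0.38, unadjusted p = 0.00235, adjusted p = 0.999), which did not pass the threshold over all promoters. An unadjusted p under 0.05 for this difference was found at 6.82% of members and 4.09% of all promoters. The share of all promoters with such opposite separation was not counted, so the pattern is a description.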

How the results depend on the processing

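Ranking by −log10 p-value gave 4 called members averaged over genotypes (2 higher, 2 lower, 3 of them shared with the 9 called by fold enrichment), 0 in WT and 0 in p27KO, with medians of 0.05 averaged, 0.07 in WT and 0.04 in p27KO. Ranking among promoters gave 4 averaged and 0 in WT, with medians of 0.09 averaged, 0.13 in WT and -0.03 in p27KO. The 1 call in p27KO went to 0 with regions in at least 2 libraries, with summits within 1 kb and with only the groups compared, which also left 0 in WT. With regions in all 10 libraries, called regions inside genes were 4 averaged, 2 in WT and 1 in p27KO, of 8 tested. Changes that turned sign were small and uncalled: Rrm2 became -0.25 by p-value and -0.06 among promoters, Tyms 0.06 by p-value, and Orc2 -0.05 among promoters. The cause was not tested.

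Leaving out 1 library moved the averaged count between 3 and 10, that in WT between 0 and 3, that in p27KO between 0 and 1, the p27KO median between 0.09 and 0.18, and called regions inside genes in p27KO between 1 and 5. Where 1 p27KO library remained, it was assumed to vary like the other groups. Rrm2 ranged from -0.03 to 0.09 and Tyms from -0.10 to 0.03. Replicate numbers are shared between groups. Deviations of same-numbered libraries from their group means correlated by 0.0602, 0.0292 and -0.0701 in WT and -0.127 in p27KO over 14731 promoters. With 2 or 3 libraries per group, these values cannot settle whether the numbers pair the libraries. With the replicate block, 6 members were called averaged over genotypes, 0 in WT and 1 in p27KO, and a crossed block, chosen after seeing the data, gave 8 averaged and 2 in p27KO. All other counts stayed within 1.5 times their main value, and 43 promoters with a peak in all 10 libraries remained 43 without any 1 library, counted over the other 9. Unknown read depth and few libraries limit what can be called.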
